A study of Mus musculus with 2 samples.

Results

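The fatty acid uptake and oxidation genes described here were 40 named genes, taken from the deposited transcript tables by their annotated gene symbols. All 40 had reads in both libraries, among 15508 annotated genes with reads in the series. The series holds 1 group, gastrocnemius muscle of male B6CASTF1/J mice at 36 days of age, with 2 µg of total RNA per library. Such mice are first-generation offspring of the C57BL/6J and CAST/EiJ strains. Replicate 1 came from the animal labelled male 03 and replicate 2 from male 04, and both labels give the same donor entry. The assay was long-read RNA sequencing, in which a read can span a whole transcript. There was no treatment, time series or second tissue, so the comparison possible was that of the libraries with each other. With 1 library on each side, a test compares these libraries and not animals in general.

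Muscle takes up fatty acids through surface proteins, carries them in the cytosol bound to a small protein, and activates them to acyl-CoA. Carnitine transferases bring the acyl groups into mitochondria, and malonyl-CoA in the cytosol blocks the first of them. In the mitochondria beta-oxidation shortens the chain in repeated cycles of dehydrogenation, hydration, a further dehydrogenation and thiolysis, and passes electrons to the respiratory chain. What is not burnt is stored as triglyceride in droplets coated by perilipins and is released again by lipases.

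The libraries held 1036455 and 1374068 reads in annotated genes in replicate 1 and replicate 2, and levels are given as CPM, these reads scaled to a total of 1000000 per library. One long read stands for 1 transcript, so CPM was not divided by length. With 0 reads a gene could still stand at 2.89 CPM in replicate 1 or 2.18 CPM in replicate 2. Intervals cover counting error only. The tissue label was checked on its markers: in replicate 1 the 7 fast fibre genes reached 182670 CPM together and the 7 slow fibre genes 598 CPM. In replicate 2 the fast fibre genes reached 137759 CPM and the slow fibre genes 1924 CPM. Among the fast fibre genes, Atp2a1 (100411 CPM in replicate 1 and 26014 in replicate 2) and Myh1 (2508 and 549) were lower in replicate 2. Myh4, Tnnt3, Tnni2, Tnnc2 and Mylpf had higher CPM in replicate 2. With partial transcript models, described below, left out, Myh4 turned round, at a log2 ratio of replicate 1 over replicate 2 of 2.34. Tnnt3, Tnni2, Tnnc2 and Mylpf kept their direction. The 7 adipocyte genes summed to 153 CPM (0.965 to 76.2 per gene) in replicate 1 and 404 CPM (0 to 246 per gene) in replicate 2, and 3 of the 5 with enough reads for a test, Adipoq, Fabp4 and Cfd, were called higher in replicate 2 (5.76% of all genes tested were). Lep was at 0 in replicate 2. The brown fat gene Ucp1 and the leukocyte gene Ptprc were at 0 in both. In bulk tissue, fewer cells of a type and less RNA per cell cannot be told apart.

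Sequences are shown first for the places where the reads chose between alternative parts of a gene. Acsl1 and Acsl6, acyl-CoA synthetases, each have a pair of neighbouring 78-base coding exons of which a transcript carries 1. In human ACSL6 the corresponding exons encode a stretch called the fatty acid gate. The exons are given here from the GENCODE M21 transcripts on GRCm38, with capitals for the bases that differ within a pair. They lie at chr8:46521268-46521345 and chr8:46521410-46521487 for Acsl1 and at chr11:54336936-54337013 and chr11:54337071-54337148 for Acsl6, all on the plus strand.
Acsl1 upstream exon: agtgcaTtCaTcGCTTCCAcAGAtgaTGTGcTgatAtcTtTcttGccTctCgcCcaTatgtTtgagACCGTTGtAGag
Acsl1 downstream exon: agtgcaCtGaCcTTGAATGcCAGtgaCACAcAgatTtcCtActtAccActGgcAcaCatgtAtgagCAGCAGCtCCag
Acsl6 upstream exon: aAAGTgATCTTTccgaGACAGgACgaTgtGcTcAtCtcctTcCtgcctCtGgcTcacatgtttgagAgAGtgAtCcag
Acsl6 downstream exon: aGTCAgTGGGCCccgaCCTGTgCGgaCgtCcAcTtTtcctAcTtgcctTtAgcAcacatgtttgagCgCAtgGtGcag
Within a pair, 42 of 78 bases were identical in Acsl1 and 46 of 78 in Acsl6. The upstream exons of the 2 genes shared 49 of 78 bases (62.8%).

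All Acsl1 reads that reached the pair held the upstream exon, 70 in replicate 1 and 27 in replicate 2. The downstream exon had 0 of 70 reads in replicate 1 (Wilson 95% interval 0 to 5.20%) and 0 of 27 in replicate 2 (0 to 12.5%). In Acsl6, 20 of 20 reads in replicate 1 held the upstream exon, with a Wilson interval of 0 to 16.1% for the other. In replicate 2, 6 of 7 Acsl6 reads held the upstream exon and 1 held the downstream exon, a share of 14.3% (Wilson 95% interval 2.57 to 51.3). All reads but 1 thus carried the upstream exon, at a depth that is thin for Acsl6.

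Acsl1 also begins at either of a pair of first exons, and RefSeq (GRCm38.p6) gives a promoter window for each, from 250 bases before to 50 bases after the start. Capitals mark motifs searched on both strands: the GC box GGGCGG, the CCAAT box, the TATA box with the letters TATAAA, and the nuclear receptor element AAGGTCA. The windows lie at chr8:46470787-46471086 and chr8:46490716-46491015, plus strand.
Acsl1 distal promoter: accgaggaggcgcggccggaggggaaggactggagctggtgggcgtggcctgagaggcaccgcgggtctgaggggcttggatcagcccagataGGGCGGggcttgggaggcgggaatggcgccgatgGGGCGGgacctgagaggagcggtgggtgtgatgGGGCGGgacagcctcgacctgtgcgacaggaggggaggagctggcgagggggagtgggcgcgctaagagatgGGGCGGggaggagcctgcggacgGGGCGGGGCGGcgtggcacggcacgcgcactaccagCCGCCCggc
Acsl1 proximal promoter: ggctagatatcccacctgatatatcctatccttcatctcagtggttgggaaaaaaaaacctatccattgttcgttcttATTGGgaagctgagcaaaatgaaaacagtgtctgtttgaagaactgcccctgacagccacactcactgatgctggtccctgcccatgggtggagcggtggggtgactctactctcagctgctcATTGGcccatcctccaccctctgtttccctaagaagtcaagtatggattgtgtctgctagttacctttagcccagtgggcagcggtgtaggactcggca
The distal window held 7 GC boxes, a pair of them overlapping, and none of the other motifs. The proximal window held 2 CCAAT motifs on the opposite strand and none of the others. The distal first exon was used by 57 of 70 reads in replicate 1 (81.4%, Wilson interval 70.8 to 88.8) and by 18 of 23 in replicate 2 (78.3%, 58.1 to 90.3). The proximal first exon had 12 of 70 reads in replicate 1 (17.1%) and 5 of 23 in replicate 2 (21.7%). The intervals overlapped, and a difference between the libraries in the choice of start was not tested. Both first exons are untranslated in the annotation and join the same second exon, which holds the start codon.

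Hadha and Hadhb, the alpha and beta subunits of the mitochondrial trifunctional protein, lie head to head on chromosome 5 with 85 bases between their annotated first bases. Hadha runs on the minus strand from 30155162 and Hadhb on the plus strand from 30155248. The RefSeq window of Hadhb, chr5:30155003-30155302, spans the gap, shown in capitals.
Hadhb promoter: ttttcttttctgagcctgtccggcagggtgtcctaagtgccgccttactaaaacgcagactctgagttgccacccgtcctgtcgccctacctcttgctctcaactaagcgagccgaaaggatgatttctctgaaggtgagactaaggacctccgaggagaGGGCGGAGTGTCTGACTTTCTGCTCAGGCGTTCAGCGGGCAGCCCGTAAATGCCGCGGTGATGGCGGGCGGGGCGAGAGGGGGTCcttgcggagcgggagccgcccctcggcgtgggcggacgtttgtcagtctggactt
The gap was 69.4% G and C and held 2 GC boxes, and the window held no CCAAT box, TATA box or nuclear receptor element. Over the 40 windows of the 32 members that RefSeq gave one for, 27 held a GC box (67.5%), against 35.7% of all 32851 windows. CCAAT was in 18 (45.0%, against 37.4%), AAGGTCA in 3 (7.5%, against 4.72%) and TATAAA in 1 (2.5%, against 13.6%). AAGGTCA was found for Acacb, Acadm and Acsl6, and TATAAA for Acacb. The 27 windows with a GC box belonged to 22 members, since some members gave more than 1 window. All 32851 windows were counted whether or not their genes had reads here, so the shares are not set against expressed genes. A match or its lack says only whether these letters stand in the window.

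Fabp3 (ENSMUSG00000028773.8, chr4:130308595-130315463 on mm10), the heart-type fatty acid binding protein that carries fatty acids in the cytosol, was the most abundant of the 40 genes. It had 933 reads (900 CPM) in replicate 1 and 2989 reads (2175 CPM) in replicate 2, rank 65 among all genes by mean level. The next highest level in either library was 478 CPM, that of Hadhb in replicate 1 and of Acot13 in replicate 2. The 40 genes together took 6162 reads (5945 CPM) in replicate 1 and 9943 reads (7236 CPM) in replicate 2, a mean of 6591 ± 913 CPM (SD, n = 2). Without Fabp3 the sums were 5045 CPM in replicate 1 and 5061 CPM in replicate 2, so nearly all of the gap between the sums lay in this gene. The other genes were not all steady, and their differences offset each other. Acot13 had 159 CPM in replicate 1 and 478 CPM in replicate 2, and Crat 465 CPM and 244 CPM. By mean level, 21 members were above 100 CPM and 4 were under 10 CPM.

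**Figure D1:**
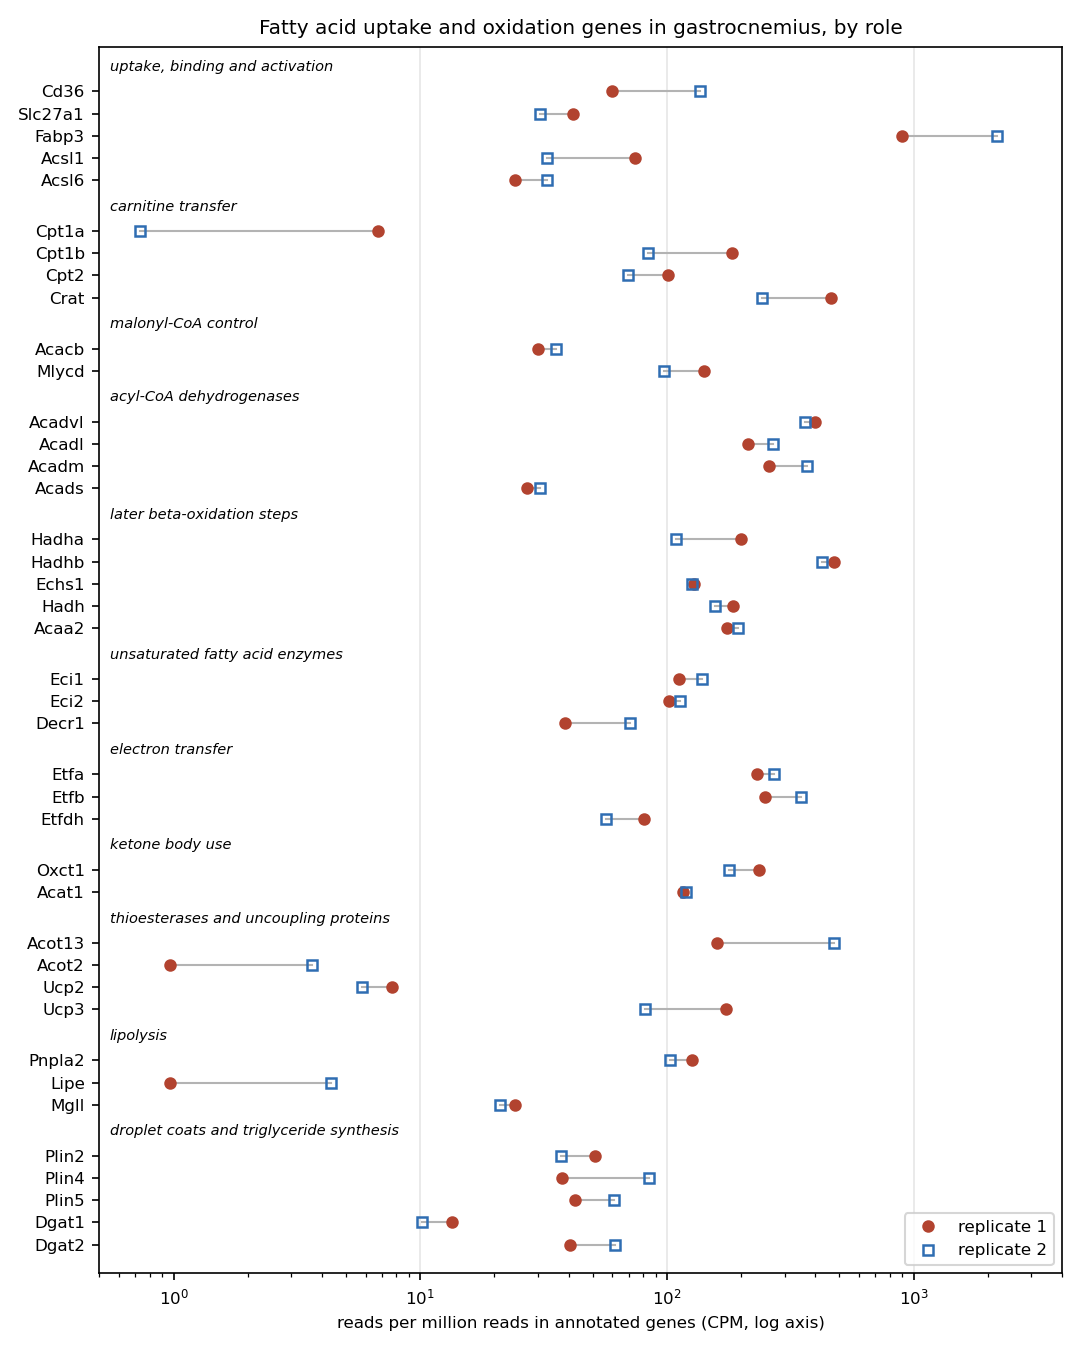
Level of each of the 40 genes in replicate 1 (filled circles) and replicate 2 (open squares), in CPM on a log axis, grouped by role. Fabp3 stands apart at 900 CPM in replicate 1 and 2175 CPM in replicate 2, the dehydrogenases except Acads and the later steps lie above 100 CPM, and Cpt1a, Acot2, Ucp2 and Lipe lie under 10.

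The libraries were compared gene by gene with an exact binomial test (two-sided), which asks whether a gene's reads split between them as all reads do. Genes needed 10 reads over both libraries, and a call needed a 2-fold difference and a p, adjusted by Benjamini-Hochberg over 8339 genes, under 0.05. Of the 37 members tested, 7 were called (18.9%), against 18.6% of all genes tested, so the members differed between the libraries about as often as any gene. Acsl1, Cpt1b and Ucp3 were higher in replicate 1 (3 members; 12.9% of all genes were called in that direction). Fabp3, Acot13, Cd36 and Plin4 were higher in replicate 2 (4 members; 5.76% of all genes). Cpt1a, Acot2 and Lipe had too few reads to be tested. The median log2 ratio, replicate 1 over replicate 2, was 0.03 over the members and 0.28 over all genes tested. TMM scaling moved the all-gene median by -0.26 to 0.02, and under it Acsl1, Cpt1b and Ucp3 were no longer called (log2 ratios of 0.92, 0.88 and 0.83). With TMM sizes 5 members were called (17.4% of all genes) and with DESeq2 sizes 5 (17.7%). Without a minimum count 7 were called (9.05% of all genes), and with at least 50 reads 7 (22.5%). Without the 2-fold limit 16 were called (30.5% of all genes).

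Among the genes of uptake, binding and activation, 3 of 5 were called, against 18.6% of all genes tested. Fabp3 had a log2 ratio of -1.27 (adjusted p = 7.46e-137 by the exact binomial test), with a ratio of 0.414 (95% interval 0.384 to 0.446). Zcchc17, which overlaps Fabp3 on the opposite strand, had 84 reads in replicate 1 and 128 in replicate 2, and the pseudogene Fabp3-ps1 had 2 reads in replicate 1 and 0 in replicate 2. Cd36 (ENSMUSG00000002944.15, chr5:17781690-17888801), the surface protein that takes up long-chain fatty acids, had 62 reads (59.8 CPM) in replicate 1 and 187 reads (136 CPM) in replicate 2, a log2 ratio of -1.18 (adjusted p = 6.22e-08). The excess of Cd36 was in partial transcripts. A 2-exon model of 1146 bases at its 3′ end held 16 of its reads in replicate 1 and 115 in replicate 2. Annotated, new-combination and new-junction models, those not listed as partial, held 34 Cd36 reads in replicate 1 and 36 in replicate 2, and with these alone the log2 ratio was 0.15 (adjusted p = 0.83 by the exact test). On such models 7 members were called (24.0% of all genes), on models other than genomic ones 6 (23.9%), and on models of at least 50 bases 5 (19.1%). Into the second exon of Cd36-201, 23 of 33 reads in replicate 1 (69.7%) and 27 of 37 in replicate 2 (73.0%) spliced from its first exon, which in some reads (15 in replicate 1 and 12 in replicate 2) itself follows an exon further upstream.

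Acsl1 (ENSMUSG00000018796.13, chr8:46471037-46536051), which activates long-chain fatty acids, had 77 reads (74.3 CPM) in replicate 1 and 45 reads (32.7 CPM) in replicate 2, a log2 ratio of 1.18 (adjusted p = 8.64e-05). Acsl6, its paralogue, had 25 reads (24.1 CPM) in replicate 1 and 45 reads (32.7 CPM) in replicate 2 and was not called. The 2 synthetases stood at 3.08 Acsl1 reads to 1 of Acsl6 in replicate 1 (95% interval 1.94 to 5.05) and at 1.00 in replicate 2 (0.647 to 1.55). Acsl6 reads changed kind between the libraries: non-partial models held 21 of 25 reads in replicate 1 and 6 of 45 in replicate 2. On those models alone Acsl6 turned round, with a log2 ratio of 1.96 (adjusted p = 0.00633), and Acsl1 exceeded it in both libraries, 69 to 21 in replicate 1 and 25 to 6 in replicate 2. Reads of Gm12224, an antisense gene over Acsl6, numbered 37 in replicate 1 and 88 in replicate 2, and whether the counting used strand is not given in the sources used here. Slc27a1, a fatty acid transport protein, had 43 reads (41.5 CPM) in replicate 1 and 42 reads (30.6 CPM) in replicate 2 and was not called.

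The carnitine transferases were led by Crat, carnitine acetyltransferase, which moves acetyl groups to and from carnitine. Crat had 482 reads (465 CPM) in replicate 1 and 335 reads (244 CPM) in replicate 2, a log2 ratio of 0.93 that fell short of 2-fold (adjusted p = 1.92e-18). Cpt1b (ENSMUSG00000078937.8, chr15:89416405-89425863), the muscle form of the outer-membrane transferase that malonyl-CoA blocks, had 191 reads (184 CPM) in replicate 1 and 115 reads (83.7 CPM) in replicate 2, and was called (log2 ratio 1.14, adjusted p = 2.55e-10). Cpt1a, the liver form, had 7 reads in replicate 1 and 1 read in replicate 2, so Cpt1b made up 96.5% in replicate 1 (exact 95% interval 92.9 to 98.6) and 99.1% in replicate 2 (95.3 to 99.98) of reads of the pair. The muscle form thus prevailed in both libraries. Cpt2, the inner-membrane transferase, had 105 reads (101 CPM) in replicate 1 and 96 reads (69.9 CPM) in replicate 2 and was not called. Gm44502, a gene that overlaps Cpt1b on the same strand, was listed with 0 reads in replicate 1 and 17 in replicate 2, and how these would divide between the genes is uncertain.

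Malonyl-CoA is made at the mitochondrial surface by Acacb and removed by Mlycd, malonyl-CoA decarboxylase. Mlycd had 147 reads (142 CPM) in replicate 1 and 134 reads (97.5 CPM) in replicate 2, and Acacb had 31 reads (29.9 CPM) in replicate 1 and 49 reads (35.7 CPM) in replicate 2. Neither was called, and Mlycd exceeded Acacb 4.74 times in replicate 1 (95% interval 3.20 to 7.23) and 2.73 times in replicate 2 (1.96 to 3.88). The leading non-partial model of Acacb is 8788 bases long, and 77.4% of its reads in replicate 1 and 100% in replicate 2 lay in partial models, which left 7 reads of replicate 1 and 0 of replicate 2 in the others.

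The 4 acyl-CoA dehydrogenases, which open each cycle on chains of different length, were not called. Acadvl, for very long chains, had 415 reads (400 CPM) in replicate 1 and 499 reads (363 CPM) in replicate 2. Acadm, for medium chains, had 270 reads (261 CPM) in replicate 1 and 509 reads (370 CPM) in replicate 2, and Acadl, for long chains, had 222 reads (214 CPM) in replicate 1 and 371 reads (270 CPM) in replicate 2. Acads, for short chains, was far lower, with 28 reads (27.0 CPM) in replicate 1 and 42 reads (30.6 CPM) in replicate 2. The order of Acadvl, Acadm and Acadl was not the same in both libraries, since Acadm was above Acadvl in replicate 2, and the means were 382 ± 26.3 CPM for Acadvl, 315 ± 77.7 CPM for Acadm and 242 ± 39.5 CPM for Acadl (SD, n = 2). Acadm differed from either of the other two by less than its own SD, while Acadvl was above Acadl in both libraries. Acads, at 28.8 ± 2.51 CPM, was below each of them in both libraries. Acadvl reads outnumbered Acads reads 14.8 times in replicate 1 (95% interval 10.1 to 22.6) and 11.9 times in replicate 2 (8.66 to 16.7).

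The later steps were not called either, in 5 of 5 genes. Hadhb, the thiolase subunit of the trifunctional protein, had 495 reads (478 CPM) in replicate 1 and 583 reads (424 CPM) in replicate 2. Hadha, its partner with the hydratase and dehydrogenase activities, had 207 reads (200 CPM) in replicate 1 and 150 reads (109 CPM) in replicate 2, a log2 ratio of 0.87 that reached 1.12 and a call on non-partial models. Their proteins form 1 complex, and Hadhb reads exceeded Hadha reads 2.39 times in replicate 1 (95% interval 2.03 to 2.83) and 3.89 times in replicate 2 (3.24 to 4.68). On non-partial models alone the ratios were 2.69 in replicate 1 (2.26 to 3.21) and 5.63 in replicate 2 (4.52 to 7.06). The leading non-partial Hadha model is 4017 bases long and that of Hadhb 2033 bases, and whether length moved the ratio was not tested.

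Hadhb reads also split at the first exon. The shorter first exon, of Hadhb-201, joined exon 2 in 330 of 483 reads in replicate 1 (68.3%, Wilson interval 64.0 to 72.3) and 359 of 543 in replicate 2 (66.1%, 62.0 to 70.0). The donor 43 bases further on, of Hadhb-203, was used by 143 reads in replicate 1 (29.6%) and 162 reads in replicate 2 (29.8%). The intervals overlapped, and a difference between the libraries in this choice was not tested.

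Hadh, the dehydrogenase for shorter hydroxyacyl-CoA, had 193 reads (186 CPM) in replicate 1 and 216 reads (157 CPM) in replicate 2. Acaa2, the mitochondrial thiolase on chromosome 18, had 182 reads (176 CPM) in replicate 1 and 268 reads (195 CPM) in replicate 2. Echs1, the short-chain hydratase, had 133 reads (128 CPM) in replicate 1 and 173 reads (126 CPM) in replicate 2, a log2 ratio of 0.03. Of these, Echs1 was the most even between the libraries.

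Unsaturated fatty acids need 3 further enzymes, none of them called. Eci1, an isomerase that shifts double bonds, had 116 reads (112 CPM) in replicate 1 and 190 reads (138 CPM) in replicate 2. Eci2, a second such isomerase, had 106 reads (102 CPM) in replicate 1 and 155 reads (113 CPM) in replicate 2. A genomic model listed at 8 bases near the gene's end held 18 of the Eci2 reads in replicate 1 and 44 in replicate 2. Eci1 held 52.3% of the reads of the pair in replicate 1 (exact 95% interval 45.5 to 59.0) and 55.1% in replicate 2 (49.7 to 60.4). On non-partial models Eci1 held 56.2% in replicate 1 (48.9 to 63.4) and 63.2% in replicate 2 (57.3 to 68.8), so it led clearly in replicate 2 on these models alone. Decr1, the dienoyl-CoA reductase, had 40 reads (38.6 CPM) in replicate 1 and 97 reads (70.6 CPM) in replicate 2, a log2 ratio of -0.86 that was short of 2-fold and reached it under TMM scaling (-1.12, adjusted p = 0.000147).

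Eci2 reads split at an acceptor. From the first exon of Eci2-211, 37 of 53 reads in replicate 1 (69.8%) and 52 of 74 in replicate 2 (70.3%) spliced to the acceptor of Eci2-211, and 10 in replicate 1 (18.9%) and 13 in replicate 2 (17.6%) to an acceptor 10 bases further on. Those 10 bases are in capitals in the following stretch on the minus strand of chromosome 13, which begins with the last 5 bases of the first exon and goes on over chr13:34993206-34993230.
Eci2 acceptor: ccgagTGTCCTGCAGgtcttcagattacaa
With the 10 bases, Eci2-211 is annotated as coding from its first exon. Without them, Eci2-213 is annotated as coding from within the second exon. The intervals of the 2 libraries overlapped for each of these shares. The first exon of Eci2-201 begins before that of Eci2-211 and ends further on. From its end, 24 of 30 reads in replicate 1 (Wilson interval 62.7% to 90.5%) and 16 of 31 in replicate 2 (34.8% to 68.0%) spliced to the same acceptor as Eci2-211.

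**Figure D2:**
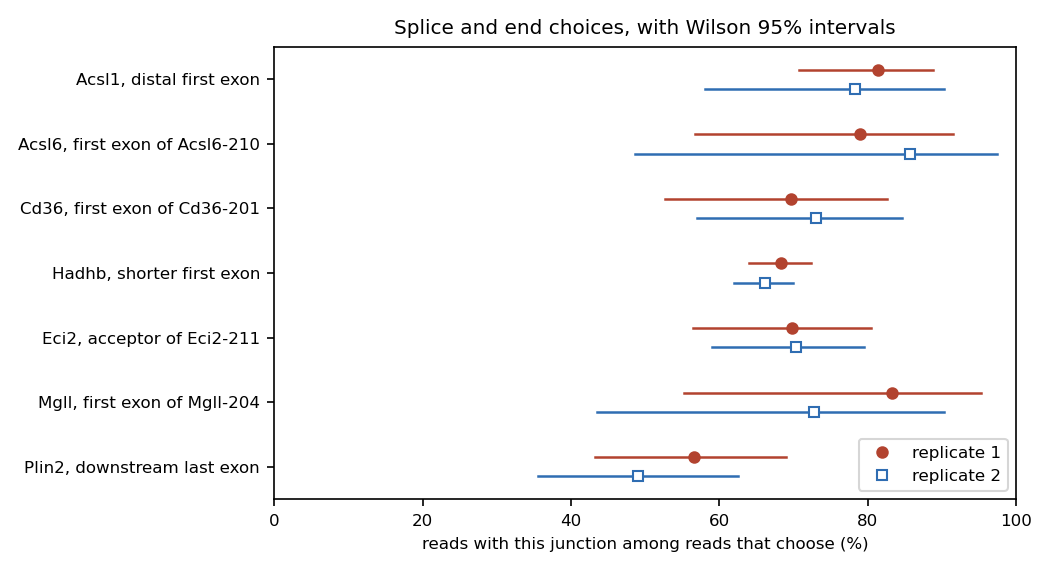
Share of reads that took 1 of the alternative junctions of 7 genes, in percent of the reads that show the choice, in replicate 1 (filled circles) and replicate 2 (open squares), with Wilson 95% intervals. In each of the 7 the intervals of the libraries overlap, as for Hadhb at 68.3% in replicate 1 and 66.1% in replicate 2.

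Electrons leave the dehydrogenases through the electron transfer flavoprotein, made of Etfa and Etfb, and its oxidoreductase Etfdh. Etfb had 259 reads (250 CPM) in replicate 1 and 482 reads (351 CPM) in replicate 2, and Etfa had 241 reads (233 CPM) in replicate 1 and 375 reads (273 CPM) in replicate 2. Their ratio was 1.07 in replicate 1 (95% interval 0.898 to 1.29) and 1.29 in replicate 2 (1.12 to 1.48), so these subunits were nearer to parity than Hadhb and Hadha. Etfdh, of the inner membrane, had 84 reads (81.0 CPM) in replicate 1 and 78 reads (56.8 CPM) in replicate 2. None of the 3 was called. Gm45233, which overlaps Etfb on the same strand, had 10 reads in replicate 1 and 44 in replicate 2, and the split between these genes is uncertain.

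Oxct1, the transferase that lets muscle use ketone bodies, had 245 reads in each library (236 CPM in replicate 1 and 178 CPM in replicate 2). Acat1, the thiolase that follows it, had 120 reads (116 CPM) in replicate 1 and 164 reads (119 CPM) in replicate 2. Neither was called. Of the Acat1 reads in replicate 2, 18 were in a genomic model listed at 1 base.

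Acot13 (ENSMUSG00000006717.7, chr13:24817948-24831540), a mitochondrial thioesterase that splits acyl-CoA, had 165 reads (159 CPM) in replicate 1 and 657 reads (478 CPM) in replicate 2, the steepest of the members' called differences (log2 ratio -1.58, adjusted p = 1.00e-41). A model listed at 1 base, the last base of Acot13-201, held 72 of 165 reads in replicate 1 (43.6%, Wilson interval 36.3 to 51.3) and 430 of 657 in replicate 2 (65.4%, 61.7 to 69.0). Without models under 50 bases Acot13 had 93 reads in replicate 1 and 227 in replicate 2 and a log2 ratio of -0.90, short of 2-fold (adjusted p = 2.19e-06). Its transcript is the shortest of the 40, 721 bases. Acot2, another mitochondrial thioesterase, had 1 read in replicate 1 and 5 in replicate 2.

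Ucp3 (ENSMUSG00000032942.14, chr7:100472990-100486432), the uncoupling protein of muscle, had 180 reads (174 CPM) in replicate 1 and 112 reads (81.5 CPM) in replicate 2, and was called (log2 ratio 1.09, adjusted p = 3.22e-09). Ucp2, its broadly expressed paralogue 6904 bases away on the same strand, had 8 reads in each library. Ucp3 made up 95.7% of the reads of the pair in replicate 1 (exact 95% interval 91.8 to 98.1) and 93.3% in replicate 2 (87.3 to 97.1). Single-exon genomic models over the last exon of Ucp3, which run past the annotated end, held 26 of its reads in replicate 1 and 51 in replicate 2. On non-partial models the counts were 136 in replicate 1 and 51 in replicate 2, a log2 ratio of 1.64.

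Of the lipases, Pnpla2, adipose triglyceride lipase, had 131 reads (126 CPM) in replicate 1 and 141 reads (103 CPM) in replicate 2. Mgll, monoglyceride lipase, had 25 reads (24.1 CPM) in replicate 1 and 29 reads (21.1 CPM) in replicate 2. Lipe, hormone-sensitive lipase, had 1 read in replicate 1 and 6 in replicate 2. Pnpla2 reads were 131 times those of Lipe in replicate 1 (95% interval 23.1 to 5213) and 23.5 times in replicate 2 (10.5 to 65.1), so the first lipase of the chain led in both.

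Plin2, the coat of droplets in most tissues, had 53 reads (51.1 CPM) in replicate 1 and 51 reads (37.1 CPM) in replicate 2. Plin5, a coat of oxidative tissues that brings droplets to mitochondria, had 44 reads (42.5 CPM) in replicate 1 and 84 reads (61.1 CPM) in replicate 2. Plin4 (ENSMUSG00000002831.13, chr17:56100591-56109803), a perilipin of fat and muscle, had 39 reads (37.6 CPM) in replicate 1 and 116 reads (84.4 CPM) in replicate 2 and was called (log2 ratio -1.15, adjusted p = 4.66e-05). Most of this was again partial: 5 Plin4 reads in replicate 1 and 4 in replicate 2 were in non-partial models, and without models under 50 bases the log2 ratio was -0.47 (adjusted p = 0.214). That limit removed a 17-base genomic model with 45 reads in replicate 2 and kept the one at the same place in replicate 1, which is 568 bases long and has 27 reads. Without any genomic models Plin4 had 12 reads in replicate 1 and 70 in replicate 2, a log2 ratio of -2.16 (adjusted p = 2.41e-07). One of the partial models, 105 bases long and past the annotated 3′ end of Plin4, held 0 reads in replicate 1 and 58 in replicate 2. Hdgfl2 overlaps Plin4 on the opposite strand and had 32 reads in replicate 1 and 28 in replicate 2.

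The final enzymes of triglyceride synthesis had 42 reads (40.5 CPM) in replicate 1 and 85 reads (61.9 CPM) in replicate 2 for Dgat2, and 14 reads (13.5 CPM) in replicate 1 and 14 reads (10.2 CPM) in replicate 2 for Dgat1. Dgat2 reads were 3.00 times those of Dgat1 in replicate 1 (95% interval 1.61 to 5.95) and 6.07 times in replicate 2 (3.43 to 11.6). Neither was called.

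Fabp4, the adipocyte fatty acid binding protein, which is not among the 40 genes, had 79 reads in replicate 1 and 338 in replicate 2. It stands beside Cd36, Plin4 and Fabp3, which were also higher in replicate 2 and are expressed in fat, in slow fibres or in both. On non-partial models, reads in replicate 1 and replicate 2 were 13 and 66 for Fabp4, 34 and 36 for Cd36, 5 and 4 for Plin4, and 907 and 2896 for Fabp3. Of the adipocyte list, Plin1 (3 reads in replicate 1 and 1 in replicate 2) and Lep (1 and 0) went the other way. Cidec and Retn had negative log2 ratios without a call. Of the slow fibre list, 4 of 7 genes were called higher in replicate 2 (5.76% of all genes), and Myh7 (log2 ratio 0.15) and Atp2a2 (0.69) had positive ratios without a call. On non-partial models Myh7 (1.32) and Atp2a2 (1.13) were called higher in replicate 1. The rest of the list was then called higher in replicate 2, with Tnnt1 at -1.20 against -2.37 on all models. On such models 24.0% of all genes were called in either direction. With the length trend described below subtracted, 2 slow fibre genes (Tnnt1 and Tnnc1) and 1 adipocyte gene (Fabp4) kept their calls. The 4 fibroblast genes had a summed level of 3175 CPM in replicate 1 and 793 CPM in replicate 2. Col1a1 and Col3a1 were called higher in replicate 1 (12.9% of all genes). Dcn (log2 ratio 0.89) was not called, and Pdgfra went the other way (3.86 CPM in replicate 1 and 5.09 in replicate 2). The 23 mitochondrially encoded genes had 2812 CPM in replicate 1 and 13347 CPM in replicate 2. The part of any of these lists in the results was not tested.

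**Figure D3:**
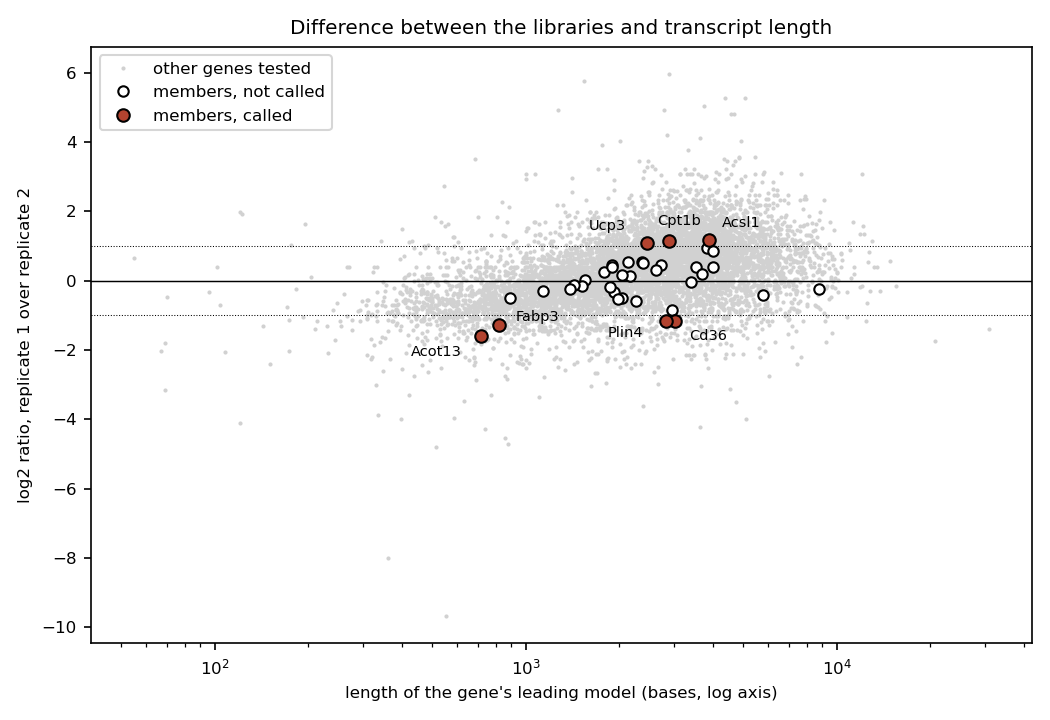
Log2 ratio of replicate 1 over replicate 2 against the length of the gene's leading non-partial model in bases (log axis), for other genes tested (grey), members not called (open circles) and members called (filled circles); dotted lines mark 2-fold. The short transcripts of Acot13 and Fabp3 lie at the low left, and Ucp3, Cpt1b and Acsl1 lie high among longer ones.

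The difference between the libraries moved with transcript length. The 3 members under 1000 bases had a median log2 ratio of -1.27, the 19 from 1000 to 2500 bases 0.03 and the 15 longer ones 0.30. Over all genes tested the medians in the same bins were -0.64, 0.14 and 0.68. Across the 37 members, which share the libraries and their depth, log2 ratio and log2 length had a Pearson correlation of 0.40 and a Spearman correlation of 0.36. With the length trend of all genes subtracted, 5 members were called (9.1% of all genes), of which Cd36 and Plin4 were among the 7. Acsl6, Decr1 and Dgat2 were then called as higher in replicate 2, and Fabp3 kept its direction but not its call, at a log2 ratio of -0.69. The trend took each gene's length from its leading non-partial model, while partial reads were counted too. On non-partial models, without this subtraction, Acsl6 was called the other way, at a log2 ratio of 1.96.

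Each library lists transcript models as annotated, as partial (an incomplete match, or a genomic model that follows no annotated splicing), or as a new combination of known splice sites or a new junction. Partial models held 718 of 6162 member reads in replicate 1 (11.7%, Wilson interval 10.9 to 12.5) and 2207 of 9943 in replicate 2 (22.2%, 21.4 to 23.0). Over all genes the shares were 14.5% in replicate 1 and 24.3% in replicate 2. Without Fabp3 the members stood at 13.2% in replicate 1 and 30.4% in replicate 2, the latter above the share of all genes. The partial share was higher in replicate 2 in 37 of 40 members; Eci1 and Plin5 were slightly higher in replicate 1, and Acot2 had no partial reads. The median member had 10.8% in replicate 1 and 27.8% in replicate 2. It exceeded 50% in 3 members in replicate 1 and in 10 in replicate 2.

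**Figure D4:**
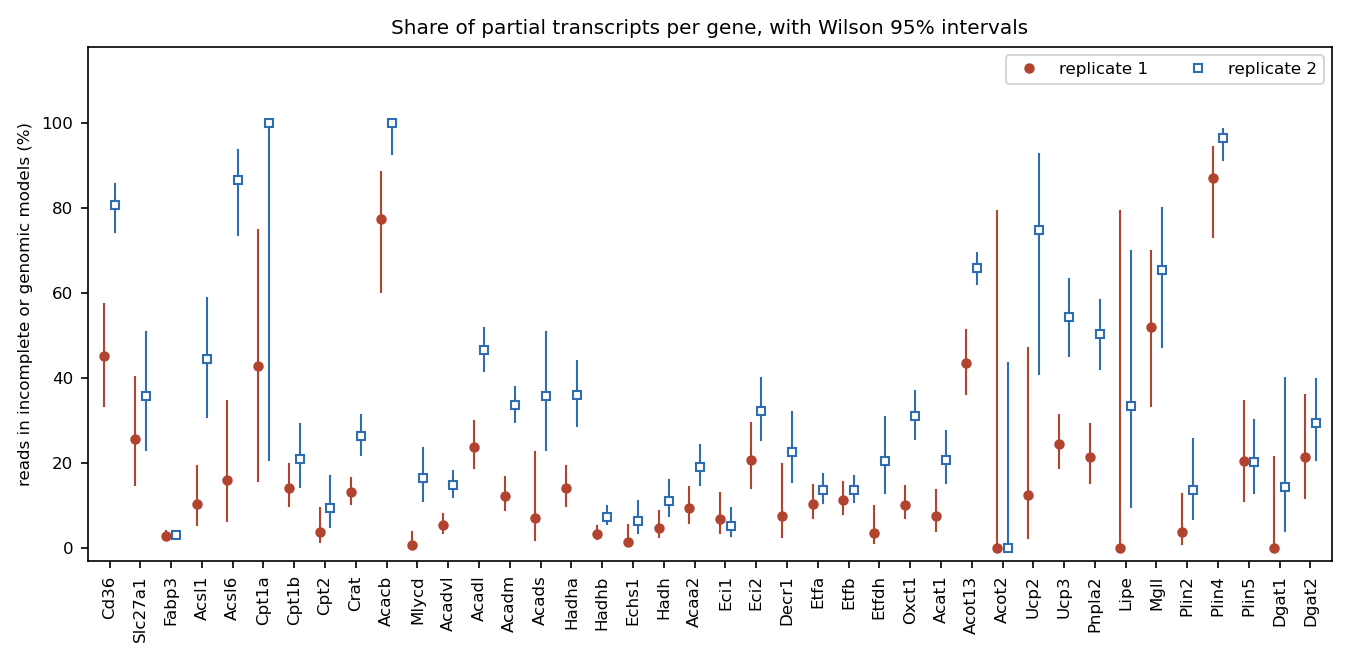
Percent of each gene's reads in incomplete or genomic models, with Wilson 95% intervals, in replicate 1 (filled circles) and replicate 2 (open squares). Replicate 2 lies higher in 37 of 40 genes, and Fabp3 is at 2.79% in replicate 1 and 3.11% in replicate 2, while Plin4 is at 87.2% in replicate 1 and 96.6% in replicate 2.

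Partial reads were mostly 3′ ends. The libraries' tables place some of the same structures in different classes, genomic in 1 and incomplete in the other (those of Pnpla2, with 16 reads in replicate 1 and 55 in replicate 2, for example), and the partial share counts both. Among incomplete matches of the members, 77.6% of reads in replicate 1 and 67.1% in replicate 2 were of the kind that ends with the last exons of an annotated transcript. Of the genomic reads, 192 of 219 in replicate 1 (87.7%) and 763 of 826 in replicate 2 (92.4%) lay in models ending within 100 bases of the gene's annotated end or past it. Fabp3, one of the shortest transcripts at 823 bases, had few partial reads, 2.79% in replicate 1 and 3.11% in replicate 2. Other short transcripts had more: Acot13 43.6% in replicate 1 and 65.9% in replicate 2, and Etfb 11.2% and 13.7%. Acadm had a 2-exon model of its 3′ end with 25 reads in replicate 1 and 127 in replicate 2, and Acadl a single-exon one with 44 in replicate 1 and 106 in replicate 2.

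The 25 members with at least 50 reads in each library were tested for the share of their leading model, the one with most reads over both libraries, with a two-sided Fisher exact test and adjustment over 1834 genes. Of these, 14 were called (56.0%), against 35.9% of all genes tested. The leading model took a larger share in replicate 1 in 12 of them, such as Acadm, with 86.7% in replicate 1 (Wilson interval 82.1 to 90.2) against 63.3% in replicate 2 (59.0 to 67.3; adjusted p = 2.02e-11). Pnpla2 had 77.1% in replicate 1 (69.2 to 83.5) against 45.4% in replicate 2 (37.4 to 53.6; adjusted p = 6.26e-07). Cd36 and Acot13, each led by a partial model, had the larger share in replicate 2. In all genes tested, 24.7% were called with a larger share in replicate 1 and 11.2% in replicate 2. With partial models left out, 1 of 23 members was called (Fabp3, 98.0% in replicate 1 and 99.4% in replicate 2, adjusted p = 0.0242), against 3.12% of all genes tested. The differences in leading share thus lay in the partial models.

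Annotated structures led most members. An annotated model led in 22 of the 25 genes tested for their leading model, and the same model led in both libraries in 22 of them, the exceptions being Acot13, Plin2 and Ucp3. Echs1-201 held 97.7% of Echs1 reads in replicate 1 and 91.9% in replicate 2, and Fabp3-201 held 95.3% of Fabp3 reads in replicate 1 and 96.3% in replicate 2. In all, the 40 genes had 391 models in replicate 1 and 494 in replicate 2, of which 657 were distinct and 226 (34.4%) were in both. A single read was behind 329 of the 657. The median gene had 7 models in replicate 1 and 10.5 in replicate 2, and the number of distinct models ran from 1 in Acot2 to 45 in Acadvl.

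**Figure D5:**
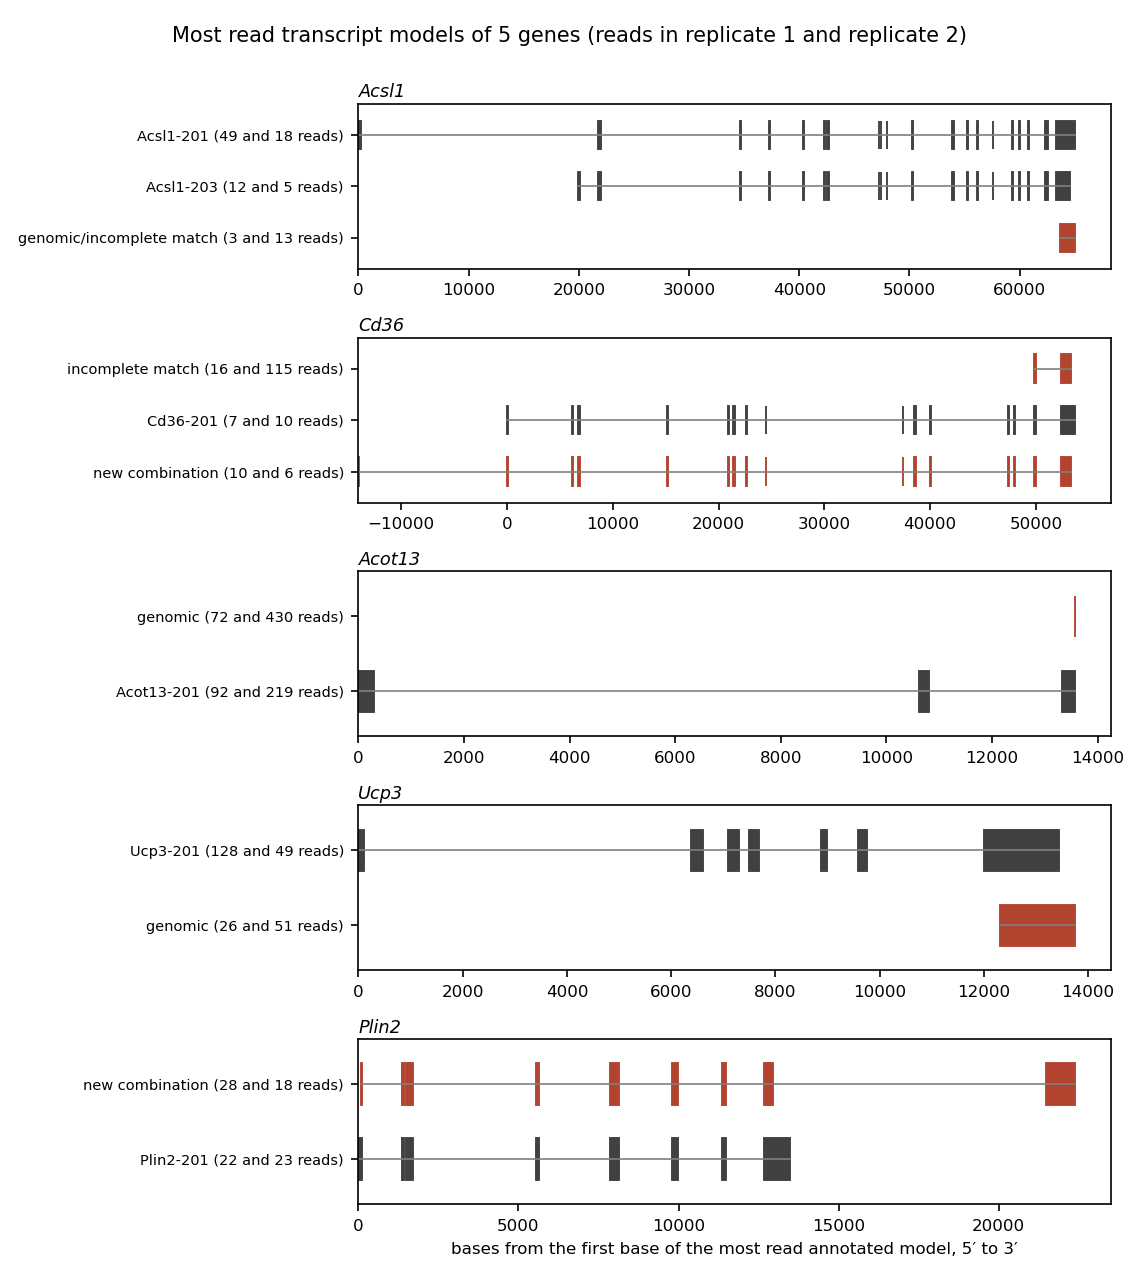
Most read models of 5 genes, drawn 5′ to 3′ with exons as boxes, in bases from the start of the most read annotated model; annotated models are dark grey and unannotated ones red, with reads in replicate 1 and replicate 2 beside each. Acsl1 shows 2 first exons, Cd36, Acot13 and Ucp3 partial models at the 3′ end, and Plin2 a last exon downstream of the annotated one.

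In Plin2 an unannotated model led 1 library. A 9-exon model of 2168 bases that is a new combination of known splice sites held 28 of 53 reads in replicate 1 and 18 of 51 in replicate 2, and Plin2-201 held 22 in replicate 1 and 23 in replicate 2. The new model leaves the last exon of Plin2-201 early and joins a further exon, 7985 bases past that exon's end, on chromosome 4. The junction is annotated in Plin2-208, a processed transcript of 3 exons without an annotated coding sequence. Counted over all models, 30 of 53 reads in replicate 1 (56.6%, Wilson interval 43.3 to 69.1) and 24 of 49 in replicate 2 (49.0%, 35.6 to 62.5) took the downstream exon. Reads that take it lack the last 78 annotated coding bases of Plin2-201 before its stop codon. Both intervals include 50%, so neither end clearly prevailed in either library.

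Of 78 other genes of fatty acid and triglyceride metabolism, 75 had reads and 61 were tested. Of these, 9 were called (14.8%, against 18.6% of all genes tested), 6 higher in replicate 1 and 3 higher in replicate 2. Lipoprotein lipase Lpl, which frees fatty acids at the vessel wall, had 292 reads (282 CPM) in replicate 1 and 298 reads (217 CPM) in replicate 2. Pdk4, the kinase that turns off pyruvate dehydrogenase, was the most abundant by reads in replicate 1 with 1201 reads (1159 CPM), against 886 reads (645 CPM) in replicate 2, a log2 ratio of 0.85 that was not called. On non-partial models Pdk4 was called, at a log2 ratio of 1.54, and without models under 50 bases at 1.92. Dbi, the acyl-CoA binding protein, had 201 reads (194 CPM) in replicate 1 and 487 reads (354 CPM) in replicate 2. Slc25a20, which carries acylcarnitine across the inner membrane, had 12 reads in replicate 1 and 26 in replicate 2, and Slc22a5, the carnitine importer, 10 in replicate 1 and 5 in replicate 2. Slc27a4, a fatty acid transport protein, had 14 reads in replicate 1 and 2 in replicate 2. Acad11, an acyl-CoA dehydrogenase, had 33 reads in replicate 1 and 13 in replicate 2. Both were called higher in replicate 1, and no longer with the length trend subtracted (adjusted p = 0.0582 for Slc27a4 and 0.0929 for Acad11). Abhd5, the coactivator of Pnpla2, had 38 reads in replicate 1 and 28 in replicate 2 and was not called. Acot1 had 0 reads in replicate 1 and 3 in replicate 2, and Acaca, which makes malonyl-CoA for synthesis, 6 in replicate 1 and 4 in replicate 2.

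The regulators of the pathway were low or hard to read in these libraries. Of the nuclear receptors for fatty acids, Ppara had 1 read in replicate 1 and 2 in replicate 2, Ppard had 2 in replicate 1 and 4 in replicate 2, and Pparg had 9 in replicate 1 and 0 in replicate 2. Pparg was under the minimum for a test, and was called higher in replicate 1 where no minimum was set. Ppargc1a, their coactivator, had 18 reads in replicate 1 and 3 in replicate 2 and was called (log2 ratio 2.81, adjusted p = 0.000586). Esrra, another nuclear receptor of oxidative metabolism, had 374 reads in replicate 1 and 2615 in replicate 2 and was called higher in replicate 2 (log2 ratio -2.40, adjusted p = 1.56e-285). Nearly all of its reads were in genomic models, and without them it had 34 reads in replicate 1 and 22 in replicate 2 and a log2 ratio of 0.95. The lipase inhibitor G0s2 had 3 reads in replicate 1 and 33 in replicate 2 and was called (log2 ratio -2.85, adjusted p = 9.60e-05). Of the desaturases, Scd1 had 14 reads in replicate 1 and 5 in replicate 2, and Scd2 had 22 in replicate 1 and 2 in replicate 2, both called higher in replicate 1, and Scd1 no longer under TMM scaling or with the length trend subtracted.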

How the data were processed

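Each deposited table holds raw read counts, 1 per transcript model, on mm10 with GENCODE M21 per the file headers. The deposited annotation files name TALON and list exon positions, and the deposited tables add each model's class, length and exon number. No source used here gives an aligner or a TALON version. Counts were whole numbers and were not pooled. A gene's count was the sum over its models, spike-ins and models outside annotated genes left out, and its length that of its leading non-partial model.

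With 1 library on each side edgeR's quasi-likelihood test had no residual degree of freedom, so counts were compared by an exact binomial test given library totals (scipy 1.17.1), with 0.5 reads added for log2 ratios, and leading models by Fisher's exact test, each adjusted over all genes tested. The binomial test was tested on simulated data. Models were matched by their chain of splice junctions. edgeR 4.0.16 and DESeq2 1.42.0 gave alternative library sizes, and statsmodels 0.14.6 the lowess length trend. Intervals are Wilson or exact at 95%. Junction choices needed at least 20 reads over both libraries and at least 10% for the minor form. Genes named with values were members above 100 CPM, called members and paralogue pairs, and of the other pathway genes those called, except 1 that is not reported here, and a short list, and the rest were chosen after their values were seen. The members and gene lists were chosen with earlier results of these data known. Labels number the samples as biological replicates, but both give the same donor entry, so p-values set these libraries against each other under counting error alone. Promoter sequences are from RefSeq (GRCm38.p6), which gave windows for 32 of 40 members, and exon sequences from GENCODE M21 transcripts.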

Additional observations from a re-analysis of the deposited data

How the results depend on the processing

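The number of members called stayed between 5 and 7 under TMM and DESeq2 library sizes, no or a higher minimum count, non-partial models alone, models without the genomic class, the length trend subtracted, and, an alternative chosen after seeing the data, without models under 50 bases. It was 16 with the adjusted p alone. Which members were called changed more: 4 of the 7 were called under TMM and under DESeq2 sizes, 5 with non-partial models and 2 with the length trend subtracted. Other pathway genes called numbered 3 of 31 tested with at least 50 reads (22.5% of all genes), 15 of 51 with non-partial models (24.0%) and 15 of 57 without genomic models (23.9%). The members' median log2 ratio of 0.03 was -0.23 under TMM, -0.24 under DESeq2 sizes, -0.0068 with no minimum count, -0.0423 with at least 50 reads, -0.16 with the length trend subtracted, and 0.16 with non-partial models. In each it stayed below the median of all genes. With TMM or DESeq2 sizes this could not change, since every gene shifts alike, and the difference was -0.2469 with and without them. Against a denominator without the 20 most abundant genes the summed level was 11597 CPM. Leaving out replicate 1 or replicate 2 gave summed levels of 5945 to 7236 CPM, partial shares of 11.7% to 22.2% and 7 to 10.5 models per member. With models of at least 2 reads, or non-partial models alone, the mean over libraries of the median was 4 models per member. On leading model share, 1 member was called with non-partial models. Log2 ratios turned round for Cd36 (0.15) and Acsl6 (1.96) with non-partial models, for Acsl6 without genomic models (0.46), and for Esrra with non-partial models (1.08) and without genomic models (0.95). The cause was not tested. For the 11 members called under any setting that kept the 2-fold limit, 64 of 87 values kept direction and status, called or not called. Acsl6, Decr1, Dgat2 and Hadha were not called in the main comparison, so for them an unchanged status means no call. Changing the minimum count leaves a gene's log2 ratio as it is, so direction could not change there. Genes under 10 reads, Cpt1a, Acot2 and Lipe, could not be compared at this depth. No paired analysis was possible because the series has 1 group.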
